A study of Mus musculus with 126 samples.

Results

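The genes described here are 4 drug efflux pumps (Abcb1a, Abcg2, Abcc2 and Abcc3), 4 carboxylesterases (Ces1d, Ces2a, Ces2c and Ces2e) and Por, the cytochrome P450 reductase, followed in the mouse colon over the day. They are 9 of the 24883 rows in the deposited tables, and they were selected by name. Abcb1a, Ces2c, Ces1d and Por were chosen by their lower levels in Bmal1 knock out than in wild type, so that difference is given as a description with no test. Of the 9 genes, 8 passed a filter on low values (a mean of at least 1 rescaled FPKM, fragments per kilobase of transcript, in at least 1 condition), and Abcc2 did not.

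Poly(A) RNA of the colon was sequenced in 126 libraries, 18 in each of 7 conditions, with 3 libraries every 4 h from ZT0 to ZT20 (ZT, hours after lights on). Wild-type mice, mice with a gut-specific Bmal1 knock out and MR knockout mice (MR, the mineralocorticoid receptor) had free access to normal chow. The design text gives an age of 8 to 12 weeks for both knock outs and no age for wild type, and it does not name the Cre driver. The other 4 groups were 8-week-old male C57BL/6 mice on 12 h of light and 12 h of darkness, given a low- or high-salt diet only at night or only by day (low salt night fed, low salt day fed, high salt night fed and high salt day fed). The labels do not say if libraries are from separate animals, so p-values measure the spread between these libraries, which may be technical in part.

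Efflux pumps of the ABC family use ATP to push drugs, bile acid conjugates and other foreign compounds out of the cell. Abcb1a encodes P-glycoprotein and Abcg2 the breast cancer resistance protein, both on the luminal side of the gut epithelium. Abcc2 exports conjugates toward the lumen and Abcc3 exports them toward the blood. Carboxylesterases cleave ester drugs and dietary esters inside the endoplasmic reticulum, and Por hands electrons from NADPH to the microsomal P450 enzymes. In liver and gut, Abcb1a and several genes of drug metabolism are known to follow the PAR bZIP factors (Dbp, Tef and Hlf), which are outputs of the circadian clock, and Nfil3 acts as their repressor.

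In GRCm38, Abcb1a lies on chromosome 5 from 8660077 to 8748575 and Por on the same chromosome from 135670033 to 135735326. The 3 Ces2 genes lie along 1 stretch of the plus strand of chromosome 8, not directly next to each other, Ces2a from 104734003 to 104741634, Ces2c from 104847068 to 104854483 and Ces2e from 104926260 to 104934672. Ces1d is on the minus strand of the same chromosome, from 93166068 to 93197838. Abcg2 is on chromosome 6 (58584523 to 58695676), Abcc3 on chromosome 11 (94343295 to 94392997, minus strand) and Abcc2 on chromosome 19 (43782192 to 43840740). All 9 are annotated as protein coding, and an FPKM here covers the whole gene.

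The RefSeq promoter table (GRCm38) held entries for 7 of the 9 genes, all but Abcc3 and Ces1d. The 250 bases before the annotated start are printed for Abcb1a and Por, whose peak times moved with feeding time, and for Ces2a and Ces2c, paralogs on 1 stretch of chromosome 8. All are on the plus strand, at chr5:8566841-8567090 for Abcb1a, chr5:135688895-135689144 for Por, chr8:104733753-104734002 for Ces2a and chr8:104846818-104847067 for Ces2c. Capitals mark matches, on either strand, to the nuclear receptor hexamer AGGTCA or the xenobiotic response core GCGTG.
Abcb1a: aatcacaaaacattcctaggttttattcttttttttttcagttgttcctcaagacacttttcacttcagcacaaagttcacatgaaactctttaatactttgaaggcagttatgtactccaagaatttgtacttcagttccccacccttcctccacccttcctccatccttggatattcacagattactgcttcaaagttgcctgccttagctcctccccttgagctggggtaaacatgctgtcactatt
Por: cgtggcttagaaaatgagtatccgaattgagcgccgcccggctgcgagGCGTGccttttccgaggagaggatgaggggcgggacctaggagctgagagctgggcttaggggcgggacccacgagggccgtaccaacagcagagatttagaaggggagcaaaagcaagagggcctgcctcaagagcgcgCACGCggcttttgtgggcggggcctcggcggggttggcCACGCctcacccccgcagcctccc
Ces2a: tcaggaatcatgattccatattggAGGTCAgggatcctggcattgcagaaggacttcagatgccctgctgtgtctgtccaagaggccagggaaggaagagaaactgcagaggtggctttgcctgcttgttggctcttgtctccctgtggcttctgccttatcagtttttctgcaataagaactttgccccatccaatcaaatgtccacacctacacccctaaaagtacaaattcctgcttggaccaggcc
Ces2c: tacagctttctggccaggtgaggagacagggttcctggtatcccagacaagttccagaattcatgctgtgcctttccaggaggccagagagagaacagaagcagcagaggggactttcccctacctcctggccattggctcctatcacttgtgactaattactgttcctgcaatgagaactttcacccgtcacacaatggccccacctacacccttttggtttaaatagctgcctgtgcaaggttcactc

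Neither an E-box (CACGTG, the site type of the clock activator) nor a PAR bZIP type site (TTANNTAA) was found on either strand in any of the 9 member windows, 3 of them alternative starts of Abcg2. Among all 32851 windows of this length in the table, 6.02% held the E-box and 5.43% the PAR bZIP type site. The hexamer AGGTCA was present in 4 of the 9 windows, which belong to Abcg2, Abcc2 and Ces2a, against 14% of all windows. GCGTG was present in the Por window alone, against 28.2% of all windows. The first base after the Abcb1a window lies 92986 bases before the first base of the gene model used for its coordinates. The Por window, ending at 135689144, lies inside the Por gene model, which begins at 135670033. The Abcg2 windows ending at 58596671 and 58640545 also lie inside their gene model, which begins at 58584523. Which start the colon uses was not measured. These matches describe letters in short windows and nothing more.

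Facts of the whole series bear on these genes as follows. Summed FPKM lay between 158029 and 660895 per library, and sequencing depth is not given, so no counting interval was computed. A scale factor under 0.6 marked 14 libraries, 9 of Bmal1 knock out (ZT0, ZT12, ZT16 and ZT20) and 5 of high salt night fed (ZT8 and ZT12). Arntl, the gene for BMAL1, had a wild-type mean of 9.32 ± 6.29 rescaled FPKM (SD, n = 18) and a Bmal1 knockout mean of 4.41 ± 0.99 with overlapping ranges, and which exons were deleted is not given. Nr3c2, the gene for MR, was at 15.1 ± 4.90 in wild type and 3.05 ± 0.99 in MR knock out without overlap. In Bmal1 knock out Nr3c2 was also lower, at 6.36 ± 3.45, with a range of 3.22 to 13.9 that overlapped with wild type. The summed level of 5 epithelial markers had condition medians of 5229 to 6601 rescaled FPKM, while the sum of 6 smooth muscle markers had medians of 1.48 to 2.31, of 5 fibroblast markers 0.491 to 1.58 and of 4 immune markers 1.003 to 3.33. By these markers the libraries labelled colon held mainly epithelial RNA.

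In wild type the order of mean levels was Ces2c at 126 ± 29.5 rescaled FPKM (SD, n = 18), Abcb1a at 99.97 ± 31.6, Ces2e at 88.6 ± 13.7, Ces2a at 65.4 ± 9.93, Abcc3 at 63.7 ± 14.5, Por at 48.4 ± 8.07, Ces1d at 43.4 ± 15.2 and Abcg2 at 22.8 ± 5.27. FPKM divides by transcript length but does not remove every difference between long and short transcripts, so this order is approximate. Neighbours in this order overlapped in their ranges over libraries. Abcc2 lay apart from all of them at 0.131 ± 0.0874, with a highest value of 0.359 in any of the 126 libraries. The Ces2 genes are close paralogs, as are Abcb1a and Abcb1b, and reads could be split between copies, so single values within these families are uncertain.

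Restricting low-salt food to the day moved the daily peak of the P-glycoprotein gene and of the P450 reductase from the start of the night to the first part of the light phase, while their mean levels did not pass the test of a difference. In low salt night fed mice, Abcb1a measured 19.4, 12.8 and 24.2 rescaled FPKM at ZT0, 23.5, 18.7 and 10.8 at ZT4, 50.2, 49.6 and 38.6 at ZT8, 52.3, 45.9 and 55.5 at ZT12, 52.3, 45.8 and 37.5 at ZT16, and 35.1, 42.2 and 37.9 at ZT20. In low salt day fed mice the values were 60.9, 48.8 and 42.1 at ZT0, 38.9, 43.6 and 28.9 at ZT4, 31.1, 41.6 and 31.2 at ZT8, 29.0, 30.3 and 29.8 at ZT12, 20.3, 17.3 and 19.1 at ZT16, and 13.6, 30.7 and 18.9 at ZT20. The night fed libraries were thus low at ZT0 and ZT4 and high from ZT8 on, and the day fed libraries were high at ZT0 and low at ZT16 and ZT20. At 5 of 6 times the 3 libraries of one group did not overlap with those of the other. The fitted 24 h component, whose amplitude is the log2 distance from mean to peak, had an amplitude of 0.83 ± 0.14 (SE) peaking at ZT13.5 under night feeding and 0.57 ± 0.14 peaking at ZT4.06 under day feeding (limma F test, adjusted p = 3.9e-05 and 0.00461). The difference between both rhythms had a size of 1.32 ± 0.19 (adjusted p = 3.69e-06), and leaving out any 1 of the 72 feeding libraries kept it between 1.23 and 1.39.

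Por showed the same opposition. Its night fed values were 22.5, 23.7 and 17.8 at ZT4 and 51.9, 48.2 and 43.8 at ZT12, and its day fed values were 34.4, 38.8 and 33.7 at ZT4 and 30.2, 36.4 and 33.2 at ZT12. At ZT20 night fed libraries were at 42.9, 32.5 and 31.9 and day fed libraries at 22.0, 24.6 and 26.4. As for Abcb1a, 5 of 6 times were apart. The amplitude was 0.54 ± 0.08 with a peak at ZT13.8 under night feeding and 0.40 ± 0.08 with a peak at ZT5.87 under day feeding, and the rhythms differed by 0.81 ± 0.11 (limma, adjusted p = 6.88e-07).

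**Figure D1:**
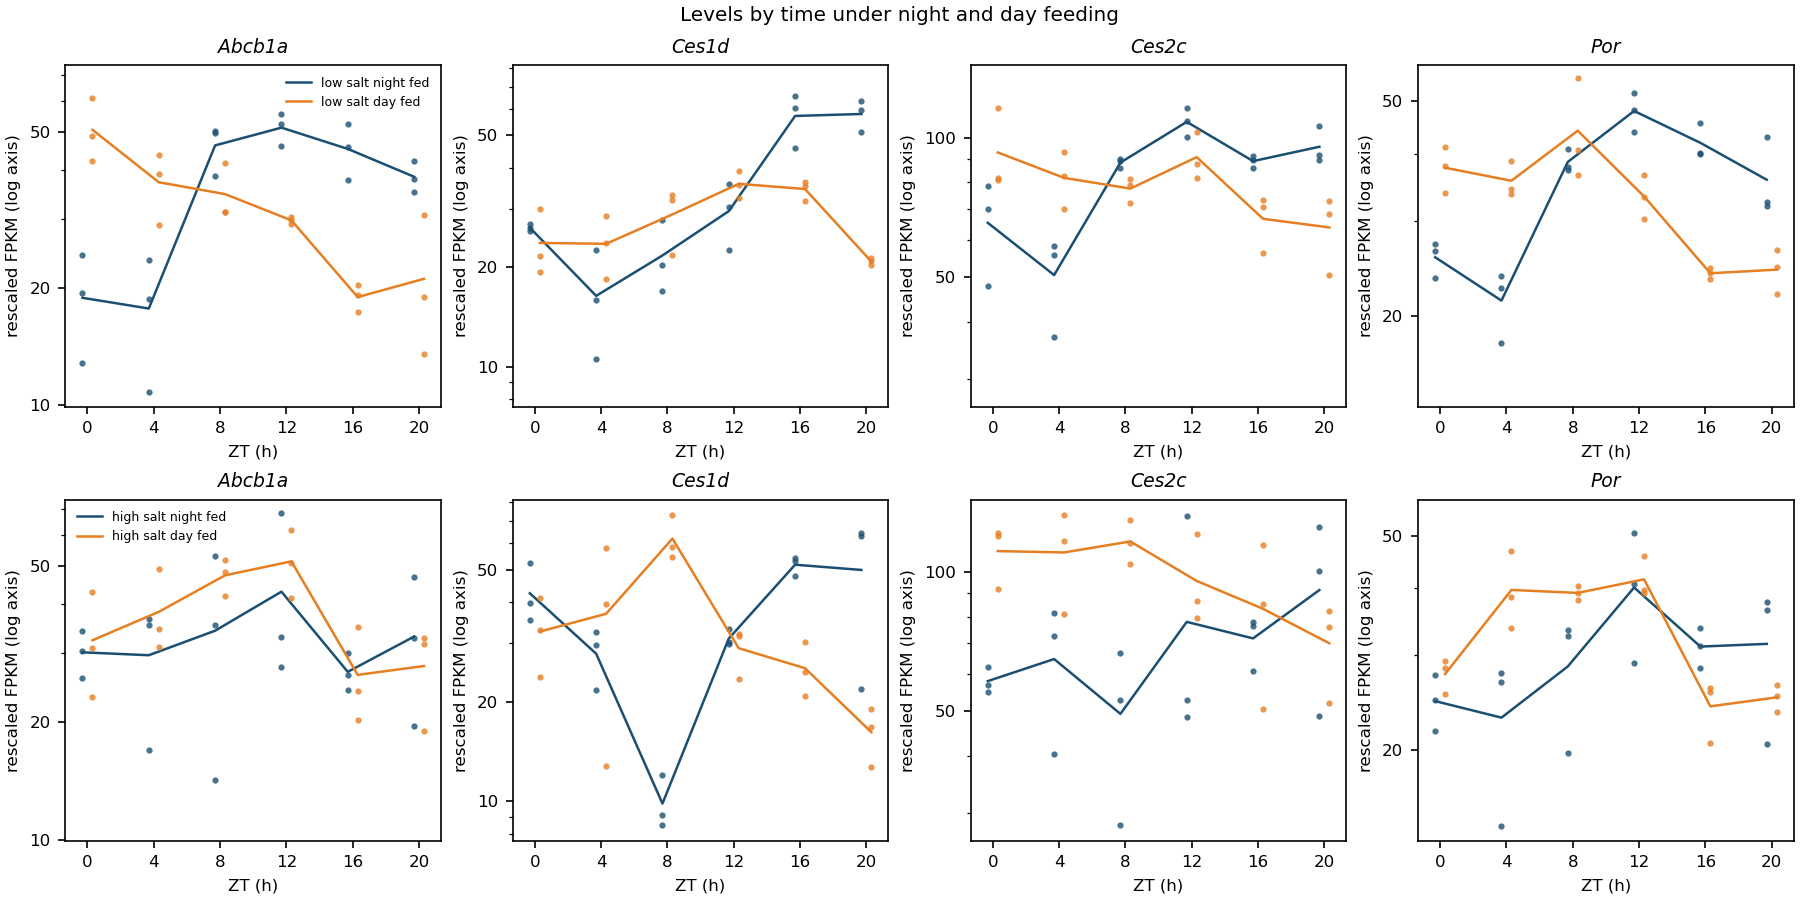
Rescaled FPKM (log axis) of Abcb1a, Ces1d, Ces2c and Por against zeitgeber time, with points for libraries and lines through the means of 3 libraries, low salt above and high salt below. Under low salt the night fed and day fed courses of Abcb1a and Por cross between ZT4 and ZT12, and under high salt Ces1d shows the widest gap, at ZT8.

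The carboxylesterases did not all follow. Ces1d, a carboxylesterase known for cleaving esters and lipids, measured 60.4, 65.5 and 45.7 at ZT16 and 63.4, 59.5 and 51.2 at ZT20 in low salt night fed mice, against 36.3, 35.3 and 31.8 and 20.9, 20.3 and 21.3 in day fed mice. The groups did not overlap at these 2 times and overlapped at the other 4. The night fed amplitude of 0.94 ± 0.13 peaked at ZT17.5 and the day fed amplitude of 0.37 ± 0.13 at ZT12.4, the latter near the threshold (adjusted p = 0.046) and lost in 14 of 72 leave-one-library fits. The rhythm difference of Ces1d was 0.94 ± 0.18 (limma, adjusted p = 0.000353). Ces2c, a major esterase of the gut, had a difference of 0.58 ± 0.17 (adjusted p = 0.0189), with a night fed peak at ZT14.4 and no day fed rhythm past the threshold, and the call ended without low salt night fed ZT4 replicate 3 (adjusted p = 0.0579). For Ces2a, Ces2e, Abcg2 and Abcc3 the rhythm differences were 0.33, 0.10, 0.12 and 0.19, and none passed.

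In counts, 5 of 8 genes were rhythmic in low salt night fed (22.6% of all 11377 rows tested) and 3 of 8 in low salt day fed (42.2%), and 4 of 8 differed in rhythm between both (38.6%). The share of 4 in 8 is near the share of all rows, so the count says little about these genes, and the single values carry the result. The median size of the rhythm difference was 0.458 over the 8 genes and 0.266 over all rows. Mean levels differed for 0 of 8 genes (1.04% of rows higher and 2.29% lower); the limma differences ran from -0.18 to 0.01, with 95% intervals reaching from -0.43 to 0.20, and 1 gene, Ces2e, had an unadjusted p under 0.05. Array weights in limma called 4, but the share of all rows under that setting is not given, so nothing is read from that count.

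The PAR bZIP factors moved in the same comparison. Dbp peaked at ZT12.3 and Tef at ZT13.7 in low salt night fed, and at ZT2.69 and ZT3.68 in low salt day fed. The rhythm differences were 4.32 ± 0.22 for Dbp and 2.76 ± 0.14 for Tef. Nfil3 peaked at ZT0.402 under night feeding and at ZT17 under day feeding. In both low salt groups the fitted peaks of Abcb1a and Por came after that of Dbp, though under night feeding Abcb1a came before Tef, and in high salt day fed the order was reversed, with Abcb1a at ZT8.36 and Por at ZT7.67 before Dbp at ZT9.72. Whether one follows from the other was not tested.

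Under high salt, feeding time again separated the courses, with Ces1d the furthest apart. In high salt night fed mice Ces1d measured 12.0, 8.47 and 9.09 at ZT8 and 21.9, 64.7 and 63.1 at ZT20, and in day fed mice 54.7, 73.1 and 58.4 at ZT8 and 19.0, 12.7 and 16.8 at ZT20. The ZT8 mean was 6.30-fold higher in day fed mice, and the groups did not overlap at 3 of 6 times. All 3 high salt night fed libraries at ZT8 were among those with a low scale factor. Leaving them out removes that time, so their part in the Ces1d trough cannot be told apart. The rhythms peaked at ZT19.5 (amplitude 0.95 ± 0.13) and ZT7.26 (0.68 ± 0.13) and differed by 1.62 ± 0.18 (limma, adjusted p = 4.65e-09). This call held in each of the 72 leave-one-library fits, from 1.53 to 1.79. Each such fit kept other low scale factor libraries of ZT8, so it does not address their part.

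Por was also rhythmic in both high salt groups, with an amplitude of 0.33 ± 0.08 at ZT14.1 under night feeding and 0.43 ± 0.08 at ZT7.67 under day feeding (rhythm difference 0.57 ± 0.11, adjusted p = 0.000278). Abcb1a differed from the low salt result. Its high salt night fed values ranged from 14.2 to 68.4 with a median of 31.5, its amplitude of 0.11 ± 0.14 was not called (adjusted p = 0.742), and its rhythm difference between day and night feeding was 0.41 ± 0.19 (adjusted p = 0.201). In high salt day fed mice its amplitude was 0.47 ± 0.14 at ZT8.36, a call that ended without ZT20 replicate 2 (adjusted p = 0.08). The feeding effect on the Abcb1a rhythm itself differed between salt levels, with a size of 1.27 ± 0.27 (limma interaction, adjusted p = 0.00607; a comparison added after the data were seen). That call ended when replicate 2 of every group and time was left out (0.96, adjusted p = 0.207) and when the low scale factor libraries were left out with cosine terms in place of time means (1.18, adjusted p = 0.0512). Replicates of high salt night fed mice at one time were far apart for this gene, such as 68.4, 27.6 and 33.0 at ZT12 and 35.4, 53.0 and 14.2 at ZT8, times at which 5 of 6 libraries had a low scale factor.

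Abcg2 was rhythmic in high salt night fed (amplitude 0.54 ± 0.09 at ZT0.58) with a rhythm difference of 0.48 ± 0.13 from day fed (adjusted p = 0.0133), Ces2a gave a difference of 0.51 ± 0.15 (adjusted p = 0.0282) and Ces2c one of 0.65 ± 0.17 (adjusted p = 0.00791). The Abcg2 call ended with the low scale factor libraries left out and cosine terms in place of time means (adjusted p = 0.234), and the Ces2a call ended without any of 4 libraries, among them high salt day fed ZT16 replicate 2 (adjusted p = 0.112). In all, 6 of 8 genes were rhythmic in high salt night fed (57% of rows), 3 of 8 in high salt day fed (31.6%), and 5 of 8 differed (32.5%). The rhythm interaction with salt called Abcb1a alone among the 8 (6.21% of rows). Between the day fed groups, a comparison also added after the data were seen, only Ces1d differed in rhythm (0.69 ± 0.18, adjusted p = 0.0198; 11.3% of rows), and it ended without high salt day fed ZT4 replicate 3 (adjusted p = 0.0719). Dbp and Tef peaked at ZT12.3 and ZT13.5 in high salt night fed and at ZT9.72 and ZT8.07 in high salt day fed.

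**Figure D2:**
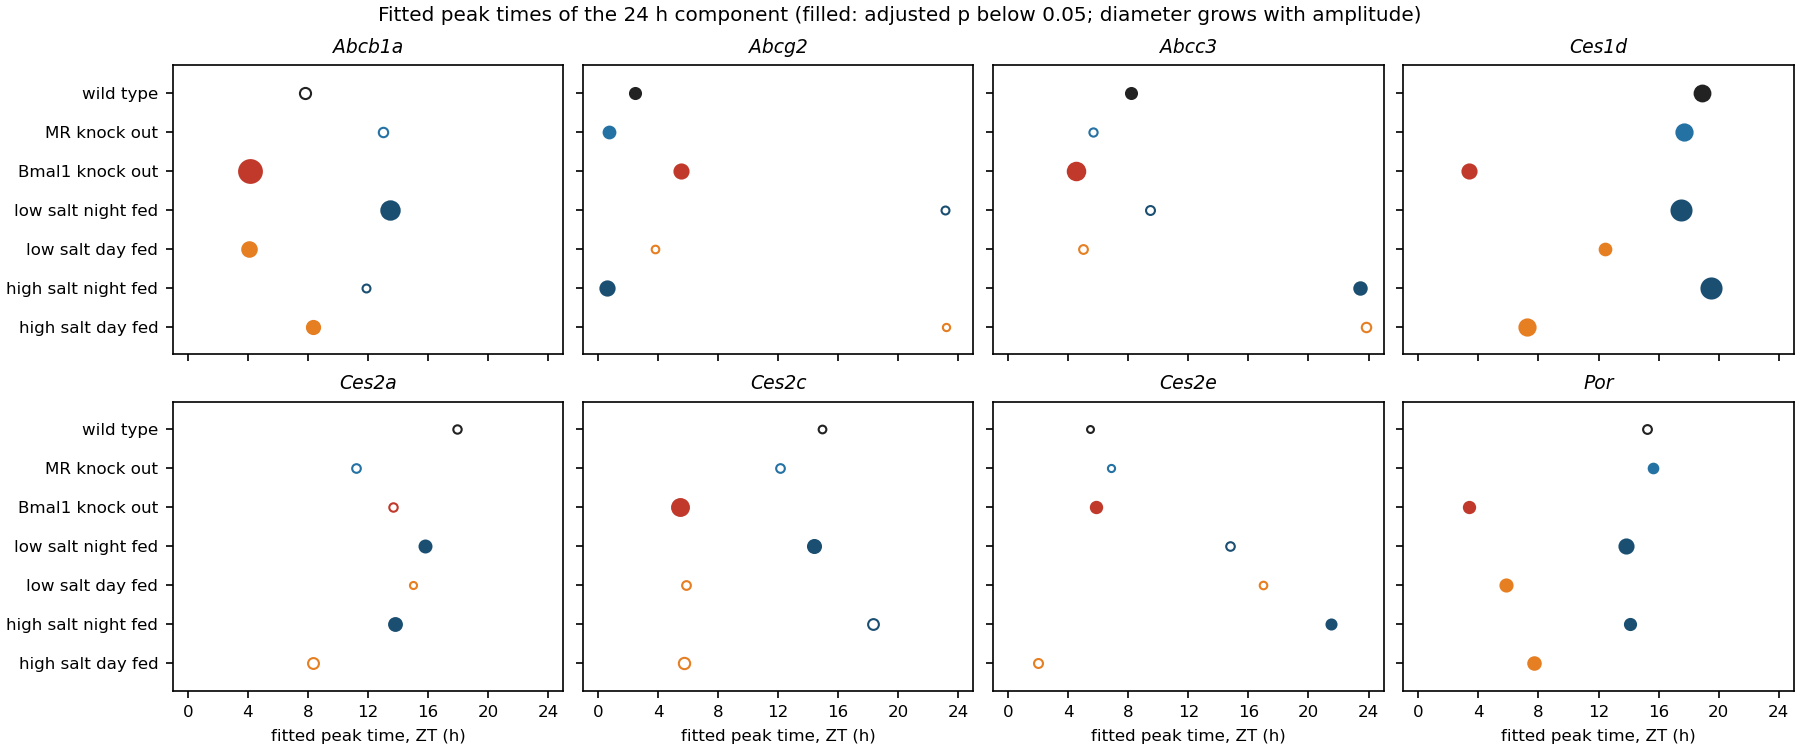
Fitted peak time of the 24 h component (ZT, h) for 8 genes in 7 conditions, filled where the rhythm passed an adjusted p of 0.05 and open where it did not, with a diameter that grows with amplitude. Abcb1a and Por sit at ZT13.5 and ZT13.8 in low salt night fed and at ZT4.06 and ZT5.87 in low salt day fed, while most Ces2e and Ces2a points are open.

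Under high salt, 4 genes also differed in mean level over the day between feeding times. The sources used here do not say if the deposited tables, 1 for each condition, were normalized together, so every level comparison crosses tables, while each rhythm lies within 1 table. Abcc3, the pump toward the blood, ranged from 26.6 to 62.1 rescaled FPKM in high salt night fed (mean 42.8 ± 12.0, SD, n = 18) and from 41.6 to 85.5 in high salt day fed (58.7 ± 13.4), and was higher in day fed at 6 of 6 times. Its difference was 0.47 ± 0.08 on the log2 scale (limma, adjusted p = 2.05e-05). Ces2e ranged from 54.8 to 121 in night fed and from 73.2 to 149 in day fed, a difference of 0.38 ± 0.08 (adjusted p = 0.000323) with higher means at 5 of 6 times. Ces2c ranged from 28.3 to 132 and from 50.4 to 133, a difference of 0.55 ± 0.12 (adjusted p = 0.00058), also at 5 of 6 times. Ces2a went the other way by -0.30 ± 0.11 (adjusted p = 0.0375), the only member called lower, and 15 single libraries each ended that call when left out; with FPKM as deposited its difference was 0.15. In counts, 3 of 8 rose and 1 fell (14.7% of rows higher and 12.9% lower). All ranges overlapped between groups.

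With the low scale factor libraries left out and cosine terms in place of time means, Abcc3 remained called and Ces2c (0.33, adjusted p = 0.135), Ces2e (0.24, adjusted p = 0.118) and Ces2a did not. Of 9 surface colonocyte markers tested, 4 were higher and 0 lower in high salt day fed than in high salt night fed (median 0.373), and the part of cell makeup in these level differences was not tested. In such bulk tissue, fewer cells of a type and less RNA per cell cannot be told apart.

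The same 3 genes showed a salt dependence of the feeding effect. The interaction of feeding time and salt was 0.46 ± 0.12 for Abcc3 (limma, adjusted p = 0.00409), 0.56 ± 0.11 for Ces2e (adjusted p = 0.000237) and 0.59 ± 0.17 for Ces2c (adjusted p = 0.0124), 3 of 8 called higher and 0 lower (11% and 8.75% of rows). With the low scale factor libraries left out and cosine terms in place of time means, the interaction remained called for Ces2e (0.42, adjusted p = 0.0335) and not for Abcc3 (0.39, adjusted p = 0.0889) or Ces2c (0.37, adjusted p = 0.244). High salt day fed exceeded low salt day fed for Ces2e by 0.51 ± 0.08 (adjusted p = 3.93e-06) and for Abcc3 by 0.32 ± 0.08 (adjusted p = 0.0048), both at 6 of 6 times, 2 of 8 called higher and 0 lower (7.79% and 7.05% of rows). High salt night fed was below low salt night fed for Por by -0.23 ± 0.08 (adjusted p = 0.0151) and for Ces2c by -0.31 ± 0.12 (adjusted p = 0.0389), 0 of 8 called higher and 2 lower (15.4% and 19.6% of rows). The fit of the compared libraries alone called neither (adjusted p = 0.056 and 0.0797). These comparisons share groups, so their values are not independent.

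**Figure D3:**
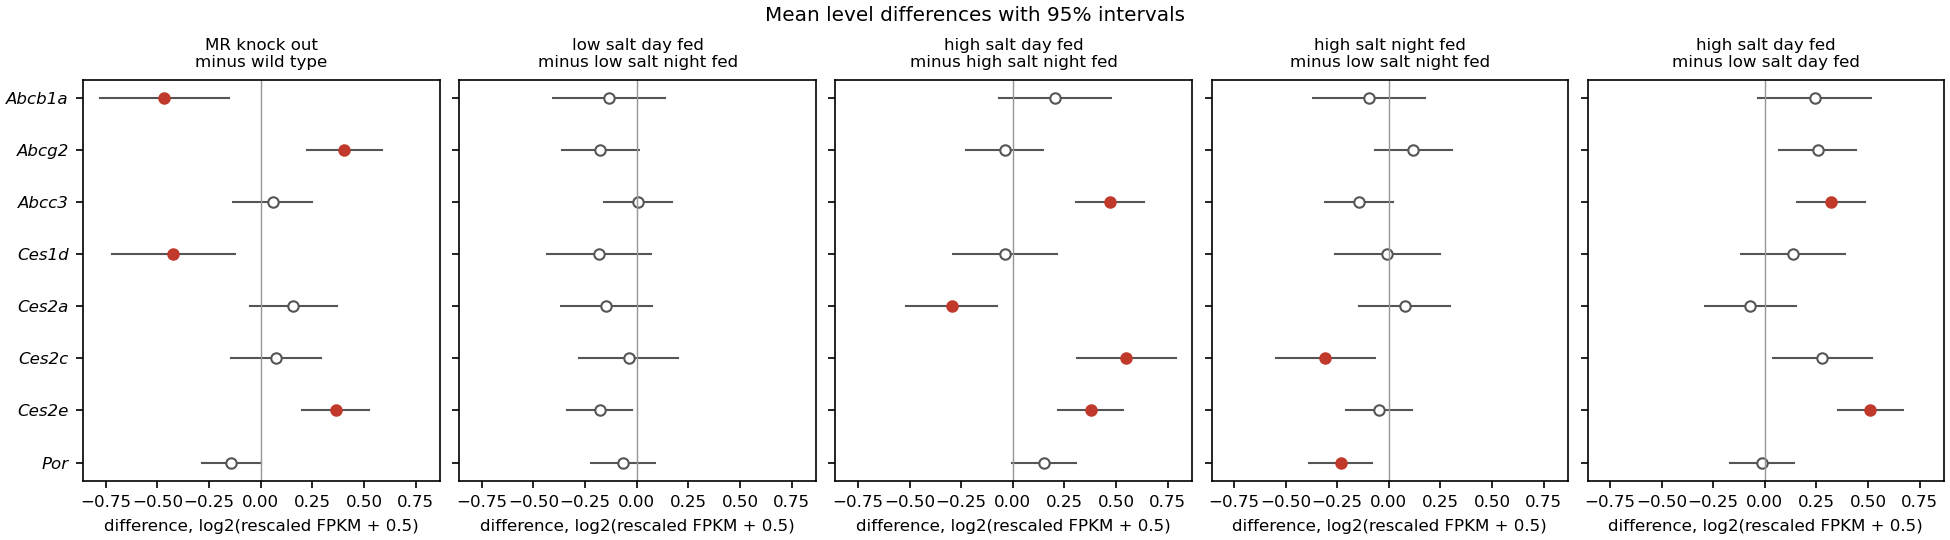
Difference of mean levels over the 6 times (log2 of rescaled FPKM plus 0.5) for 8 genes in 5 comparisons, with 95% intervals from the residual degrees of freedom, filled where the adjusted p was below 0.05. Low salt day against night feeding has no filled point, and Abcc3, Ces2c and Ces2e lie to the right of 0 in high salt day against night feeding.

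Loss of MR went with small and mixed level differences. Abcb1a ranged from 50.6 to 152 rescaled FPKM in wild type (median 99.4) and from 38.6 to 130 in MR knock out (median 66.1), and was lower at 5 of 6 times by -0.47 ± 0.15 on the log2 scale (limma, adjusted p = 0.0085). Ces1d was lower by -0.42 ± 0.15 (adjusted p = 0.0119), also at 5 of 6 times. Abcg2 was higher by 0.41 ± 0.09 (adjusted p = 0.000232) and Ces2e by 0.36 ± 0.08 (adjusted p = 0.000196), each at 6 of 6 times. Abcc3, Ces2a, Ces2c and Por, at 0.06, 0.16, 0.08 and -0.14, did not pass. With 2 of 8 higher and 2 lower, against 24.7% and 41.3% of all rows, the genes had no common direction, and all ranges overlapped.

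The wild-type libraries are the same ones that entered the choice of Abcb1a, Ces2c, Ces1d and Por. Picking genes that were high in them tilts the MR knock out difference of these genes toward lower, and both genes called lower are among them. The size of this tilt was not tested. Wild type also differed in its length score, the tendency of long transcripts to read high or low in a library (0.12 ± 0.07 in wild type and 0.01 ± 0.09 in MR knock out, SD, n = 18). With that score as a covariate the Abcb1a difference was 0.03 (adjusted p = 0.855) and that of Ces1d -0.24 (adjusted p = 0.285). Quantile normalization brought Ces2e to 0.19 (adjusted p = 0.0606). The sum of 9 surface colonocyte markers had a median of 7968 in wild type and 10200 in MR knock out, with 5 markers higher and 1 lower, and the sum for proximal colon or small intestine was 315 against 838; their part in these differences was not tested.

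In wild type and MR knock out, 3 of 8 genes each were rhythmic. In wild type, Ces1d had an amplitude of 0.65 ± 0.15 with a peak at ZT18.9 (adjusted p = 0.00422), Abcg2 0.33 ± 0.09 at ZT2.49 (adjusted p = 0.0248) and Abcc3 0.32 ± 0.09 at ZT8.21 (adjusted p = 0.0344), 3 of 8 genes (17.7% of rows). The Abcg2 call ended without any of 4 single libraries, at most without wild type ZT16 replicate 1 (adjusted p = 0.0838), and the Abcc3 call without any of 8, at most without ZT20 replicate 1 (adjusted p = 0.115). Ces1d measured 29.3, 21.0 and 14.6 at ZT8 and 54.2, 53.1 and 54.4 at ZT20. Abcb1a was high at ZT12 (143, 141 and 131) and lower at ZT16 (52.4, 81.7 and 94.9), yet its 24 h component of 0.33 ± 0.15 did not pass (adjusted p = 0.28). In MR knock out 3 of 8 were called (21.7% of rows), Ces1d with a peak at ZT17.7, Abcg2 at ZT0.765 and Por at ZT15.6, the last near the threshold (adjusted p = 0.0465). The Por call ended in 34 of 54 leave-one-library fits (limma, adjusted p up to 0.101). Rhythm differences between MR knock out and wild type passed for 0 of 8 genes and for 0.835% of rows (limma), and 0 of 8 also had an unadjusted p under 0.05. With limma array weights 3 were called, but the share of all rows under that setting is not given, so nothing is read from that count.

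Averaged over the day, Bmal1 knock out had lower values of all 8 genes than wild type, the contrast by which 4 of them were picked. The log2 differences were -2.58 ± 0.15 for Ces1d, -2.12 ± 0.15 for Abcb1a, -1.47 ± 0.11 for Ces2c, -1.14 ± 0.10 for Ces2a, -1.14 ± 0.07 for Por, -0.79 ± 0.09 for Abcc3, -0.62 ± 0.08 for Ces2e and -0.29 ± 0.09 for Abcg2. Their median was -1.14, that of all rows -0.132, and 31.1% of rows were called higher and 49.2% lower; because the choice used this contrast, nothing is read from the count. With FPKM as deposited they ran from -3.38 for Ces1d to -1.15 for Abcg2, with all rows at -0.89, and adding the length score to the fit put Abcb1a at -1.22 and Abcc3 at -0.22. Ces2a was the gene whose 18 libraries did not overlap at all (18.9 to 40.0 in the knock out, 46 to 83.5 in wild type). The share of all rows without overlap was not computed, so nothing is read from this.

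The difference was not of 1 size through the day. Abcb1a in Bmal1 knock out measured 74.8, 67.9 and 46.6 rescaled FPKM at ZT4, 24.6, 61.7 and 15.01 at ZT8, and between 10.6 and 14.7 in all 9 libraries at ZT12, ZT16 and ZT20, where wild type lay between 52.4 and 143. Over ZT4 and ZT8 alone, a split chosen after seeing the data, the log2 difference was -1.28 for Abcb1a, -1.56 for Ces1d, -0.59 for Ces2c, -0.61 for Por and 0.19 for Abcg2, and over ZT12, ZT16 and ZT20 it was -2.78, -3.26, -1.99 and -1.48 for the first 4. At ZT4 alone the ratio of the knockout mean to the wild-type mean was 0.568 for Abcb1a, 0.38 for Ces1d and 0.865 for Ces2c. It was 0.785 for Por and 1.28 for Abcg2, and each of these ratios was the highest of the 6 times. No library at ZT4 or ZT8 had a scale factor under the cut of 0.6, and 8 of 9 at the 3 later times did. Scale factors still varied at ZT8, so that cut does not make the libraries of this time alike. Ces2c was 53.7, 96.2 and 29.5 rescaled FPKM there, and Abcb1a was 15.3, 75.7 and 11.7 FPKM as deposited. At ZT0, in neither part of the split, Abcb1a was 23.1, 15.3 and 55.1 rescaled FPKM, and 15.4, 6.74 and 81.5 as deposited. At ZT0 and ZT8 the replicate with the highest scale factor had the highest Abcb1a level. The sum of surface colonocyte markers in the knock out had a median of 8961 at ZT4 and ZT8 and 5518 at the other times. In wild type it was 7968 and 8386. The part of the scale factors or of cell makeup in the time course was not tested.

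**Figure D4:**
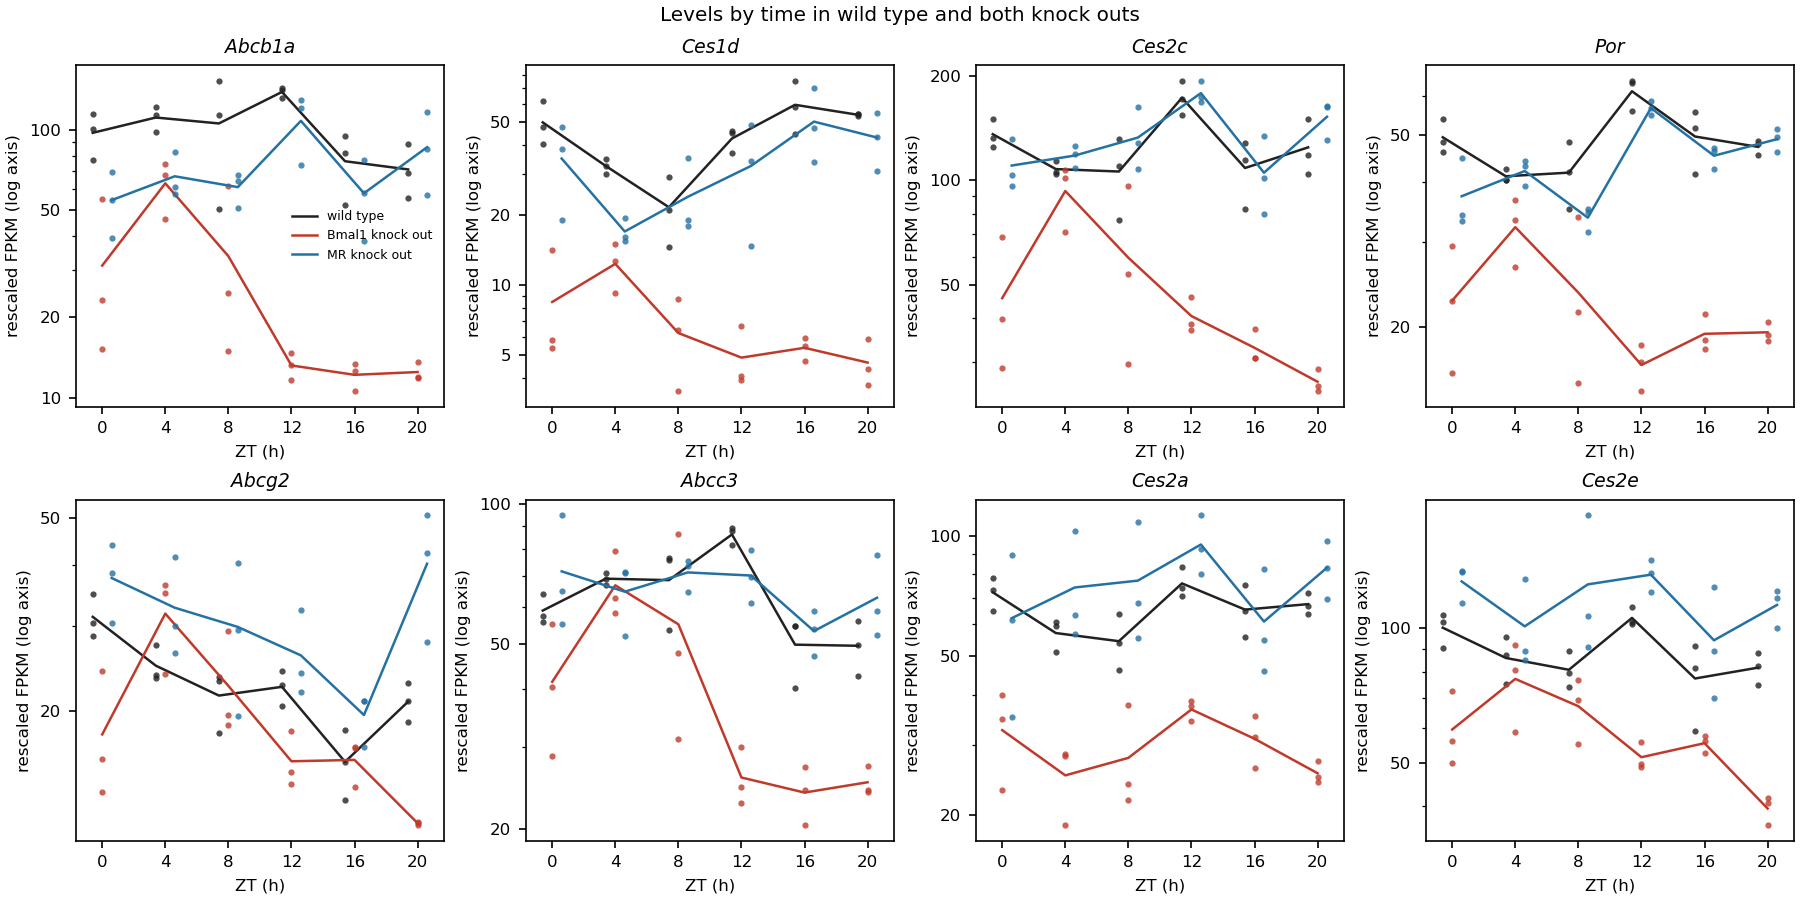
Rescaled FPKM (log axis) of 8 genes against zeitgeber time in wild type, Bmal1 knock out and MR knock out, with points for libraries and lines through the means of 3 libraries. Abcb1a in Bmal1 knock out falls from 46.6 to 74.8 at ZT4 to 10.6 to 14.7 at ZT12 and later, and Ces2a shows no such course.

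The rhythm in Bmal1 knock out comes from the libraries by which 4 of the genes were picked, and it restates in part that their difference was larger at ZT12 to ZT20, so it too is given as a description with no test. The fitted peaks of all genes but Ces2a lay between ZT3.34 and ZT5.84, with amplitudes from 0.34 for Por to 1.13 ± 0.15 for Abcb1a. The rhythm difference from wild type was 1.06 ± 0.21 for Ces1d, 0.98 ± 0.22 for Abcb1a, 0.80 ± 0.15 for Ces2c, 0.64 ± 0.13 for Abcc3, 0.51 ± 0.10 for Por and 0.39 ± 0.13 for Abcg2. By the call rule used elsewhere, 7 of 8 genes were past the threshold for rhythm in the knock out (56.7% of rows) and 6 of 8 for the rhythm difference (31.2% of rows), and nothing is read from these counts. Without the low scale factor libraries and with cosine terms in place of time means, they were 4 and 1. Among the PAR bZIP factors and their repressor, Dbp and Tef were not called rhythmic in the knock out (limma, adjusted p = 0.331 and 0.38), and Nfil3 was, with an amplitude of 0.48 ± 0.11 and a peak at ZT5.73 (adjusted p = 0.00139).

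Other genes of the same pathways, from lists chosen with earlier results known, gave the following counts. In Bmal1 knock out 6 of 6 tested other efflux transporters, 10 of 13 other esterases and 10 of 12 xenobiotic receptors and partners were called lower, with 0, 2 and 1 called higher, against 49.2% of all rows lower and 31.1% higher. The other lists did not go one way there, with 3 higher and 3 lower of 6 drug uptake carriers. Of 11 genes of an electron transfer list that is not only microsomal, 3 were higher and 6 lower. The pair Cyp51 and Sqle of sterol synthesis gave 1 higher and 0 lower. This is the contrast by which 4 of the members were picked, and 9 of its knockout libraries had a low scale factor. Among the transporters, Abcb1b may share reads with Abcb1a. Nothing is therefore read from the counts of this contrast. In MR knock out 5 of 6 transporters were lower and 0 higher, against 41.3% and 24.7% of all rows, with Abcc4, an exporter of conjugates and nucleotides, at -0.79 ± 0.10 (adjusted p = 2.44e-08). Of 13 esterases 2 were higher and 5 lower there, with Ces1c, a secreted carboxylesterase, at 2.102 ± 0.24 (adjusted p = 2.12e-09). Receptors gave 1 higher and 5 lower of 12, uptake carriers 3 higher and 2 lower of 6, electron transfer 1 higher and 3 lower of 11, and Cyp51 and Sqle 2 higher. In high salt day fed against night fed, 7 of 13 esterases were higher and 2 lower, against 14.7% and 12.9% of all rows, with Ces1g at 0.74 ± 0.16 (adjusted p = 0.000429). Transporters gave 1 higher of 6, uptake carriers 1 of 6 and receptors 4 of 12, with 0 lower in each, and electron transfer gave 2 higher and 1 lower of 11. Between low salt day and night feeding, where 38.6% of all rows differed in rhythm, 10 of 12 receptors and partners did, with Nr1i3, the constitutive androstane receptor, at 0.91 ± 0.15 (adjusted p = 3.12e-05). In the same comparison 3 of 6 transporters, 5 of 13 esterases, 3 of 6 uptake carriers and 2 of 11 genes of electron transfer differed, among the last Cyb5b, an outer mitochondrial cytochrome b5, at 0.36 ± 0.05 (adjusted p = 1.82e-06). Cyp51 and Sqle both differed in rhythm there, by 0.69 ± 0.10 (limma, adjusted p = 8.06e-06) and 0.99 ± 0.12 (adjusted p = 1.55e-07).

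Over the 24 condition and time means of the feeding groups, the rows most like Abcb1a were Abcb1b (Pearson r = 0.967), its paralog, Mep1a (0.888) and Nxpe4 (0.864). The rows most like Por were Fam76a (0.901), Tsku (0.894) and Sepp1 (0.891). Those most like Ces2c were Ces2d-ps (0.892), Pgm2 (0.879) and Btnl1 (0.866), and among those most like Ces1d were Gstt3 (0.82) and Dfna5 (0.801). Between members, Abcb1a and Por had an r of 0.863, Abcb1a and Ces2c one of 0.693 and Abcb1a and Abcg2 one of 0.0308. All points share the same 4 groups, so these values are a description.

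Abcc2 stayed near 0 throughout and was not tested. Its values in wild type were 0.263, 0.228 and 0.264 at ZT12 and 0.0479, 0.067 and 0.115 at ZT4, and in low salt night fed 0.105, 0.107 and 0.119 at ZT12. In low salt day fed the highest time was ZT0, with 0.148, 0.147 and 0.16. In Bmal1 knock out 5 libraries were listed at 0 and the highest value was 0.062. At such levels no call was made.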

How the data were processed

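Colon RNA of 126 libraries was analysed. The authors deposited FPKM, 1 table for each condition, made with TopHat2 2.1.1 and Cufflinks 2.2.1 on mm10, per the submitters' processing notes. Libraries were rescaled by the median of ratios over 6966 rows with an FPKM of at least 1 in all libraries, and log2(rescaled FPKM + 0.5) was tested for the 11377 rows with a mean of at least 1 in at least 1 condition. limma 3.58.1 (R 4.3.3, trend and robust options) was fitted with a mean for each condition and time, once for the genotypes (54 libraries, 36 residual degrees of freedom) and once for the feeding groups (72 and 48). A level is the mean over 6 times, and a rhythm is the 24 h cosine and sine component, given by its amplitude and tested by F. P-values were adjusted by Benjamini-Hochberg over all rows tested, with a threshold of 0.05. Fold changes on this scale understate changes of low values. The script was tested on simulated data. The members and gene lists were chosen with earlier results of these data known. All 9 members are named, and up to 3 genes of each other list, those with the smallest adjusted p-value. For Abcb1a, Ces2c, Ces1d and Por, the 3 other rows with the highest Pearson r over the feeding means are named too, except 1 that is not reported here. Alternatives covered the pseudocount, filter, scaling, array weights, covariates and left-out libraries.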

Additional observations from a re-analysis of the deposited data

Results flagged for a closer look

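Feeding effects that differed between low and high salt by an interaction test were found for 4 genes (limma, adjusted over all rows tested). In rhythm 1 of 8 was called, against 6.21% of all rows. In mean level 3 of 8 were called higher and 0 lower, against 11% and 8.75% of all rows. The rhythm of Abcb1a responded to feeding time differently at each salt level by 1.27 on the log2 scale (adjusted p = 0.00607). The mean level did so by 0.464 for Abcc3 (adjusted p = 0.00409), by 0.587 for Ces2c (adjusted p = 0.0124) and by 0.557 for Ces2e (adjusted p = 0.000237). The low salt differences of these levels were 0.01, -0.04 and -0.18, and the high salt differences were 0.47, 0.55 and 0.38.

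The rhythm interaction was added after the data were seen. With the low scale factor libraries left out and cosine terms in place of time means, the calls ended for Abcb1a (adjusted p = 0.0512), Abcc3 (adjusted p = 0.0889) and Ces2c (adjusted p = 0.244), and Ces2e remained called (adjusted p = 0.0335).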

How the results depend on the processing

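Of 1062 alternative values for 70 gene results, 896 kept direction and call, 139 lost the call, 24 moved and 3 reversed. The reversed values were Abcb1a in MR knock out with the length score as covariate (0.0341), Ces2a in high salt day against night feeding with FPKM as deposited (0.152) and Abcg2 in Bmal1 knock out at ZT4 and ZT8 alone (0.188). That split by time, the rhythm comparison of the day fed groups and the rhythm interaction were chosen after seeing the data. Where a cause is not evident from the setting, the cause was not tested. The counts of members called below come without the share of all rows called under the same setting. They show how far each count moved, and nothing about these genes is read from them. For the Bmal1 knock out rhythm and its rhythm difference they remain a description with no test.

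With FPKM as deposited the median of all rows moved to -0.89 for the Bmal1 knock out level, -0.24 for MR knock out, 0.41 for high salt feeding time, -0.45 for salt under night feeding and 0.42 for the level interaction, and the share of calls that were higher became 3.49%, 16%, 99.6%, 0.613% and 99.1%. The members called were then 2 for the MR knock out level, 0 for wild-type rhythm, 1 for MR knock out rhythm, 0 for low salt day fed rhythm, 7 for high salt day fed rhythm, 7 for the high salt feeding level, 8 for salt under night feeding, 1 for salt under day feeding, 8 for the high salt rhythm difference, 3 for the day fed rhythm difference, 7 for the level interaction and 8 for the rhythm interaction.

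Array weights called 5 for wild-type rhythm, 6 for MR knock out rhythm, 3 for the MR knock out rhythm difference, 4 for the low salt feeding level, 4 for salt under night feeding, 5 for salt under day feeding, 8 for high salt day fed rhythm, 8 for the high salt rhythm difference, 6 for the day fed rhythm difference, 6 for the level interaction and 7 for the rhythm interaction. The length score covariate called 5 for wild-type rhythm, 5 for MR knock out rhythm, 1 for salt under night feeding, 1 for low salt day fed rhythm and 2 for the day fed rhythm difference. Cosine and sine terms without low scale factor libraries called 4 for Bmal1 knock out rhythm, 1 for its rhythm difference, 1 for the high salt feeding level, 1 for salt under night feeding, 3 for high salt night fed rhythm, 5 for high salt day fed rhythm, 3 for the high salt rhythm difference, 1 for the level interaction and 0 for the rhythm interaction, and cosine terms alone called 0 for the day fed rhythm difference. The compared libraries alone called 1 for MR knock out rhythm, 0 for salt under night feeding, 4 for salt under day feeding, 3 for the high salt rhythm difference and 2 for the day fed rhythm difference. No filter called 1 for salt under night feeding and 2 for the day fed rhythm difference, and quantile normalization called 5 for high salt day fed rhythm.

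Leaving out replicates or single libraries gave members called of 2 to 5 for the level, MR knock out against wild type, 1 to 4 for the level, feeding time by salt interaction, 2 to 4 for the level, high salt day fed against high salt night fed, 1 to 4 for the level, high salt day fed against low salt day fed, 0 to 2 for the level, high salt night fed against low salt night fed, 0 to 0 for the level, low salt day fed against low salt night fed, 2 to 7 for the rhythm difference, Bmal1 knock out against wild type. It gave 0 to 0 for the rhythm difference, MR knock out against wild type, 0 to 2 for the rhythm difference, feeding time by salt interaction, 1 to 5 for the rhythm difference, high salt day fed against high salt night fed, 0 to 1 for the rhythm difference, high salt day fed against low salt day fed, 3 to 4 for the rhythm difference, low salt day fed against low salt night fed, 5 to 7 for the rhythm, Bmal1 knock out, 0 to 3 for the rhythm, MR knock out. It gave 2 to 7 for the rhythm, high salt day fed, 4 to 7 for the rhythm, high salt night fed, 0 to 3 for the rhythm, low salt day fed, 3 to 5 for the rhythm, low salt night fed, 0 to 4 for the rhythm, wild type. Single libraries that moved a count were wild type ZT0 replicate 1 (1 wild-type rhythm without it), low salt night fed ZT4 replicate 3 (3 low salt night fed rhythms), high salt night fed ZT0 replicate 2 (1 for salt under night feeding), high salt day fed ZT16 replicate 2 (4 for salt under day feeding), ZT16 replicate 3 (7 high salt day fed rhythms), ZT4 replicate 3 (0 for the day fed rhythm difference) and ZT4 replicate 1 (2 for the rhythm interaction).

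Same-numbered libraries did not deviate together (mean r 0.00396 in the genotypes and -0.00224 in the feeding groups), and 20 of 54 and 24 of 72 libraries correlated best with their own number. A replicate block ended the call of the Por rhythm in MR knock out (amplitude 0.23, limma, adjusted p = 0.0536) and no other tested member call. By the same rule the Abcg2 rhythm difference in Bmal1 knock out (0.39), a description with no test, also fell out. Depth is not given, so it set no interval.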
